A study of Mus musculus with 8 samples.

Results

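The Hippo pathway genes described here are the co-activators Yap1 and Wwtr1 (TAZ), the kinases Lats1 and Lats2, the DNA-binding factors Tead1 to Tead4, and Amotl2 and Ankrd1, measured in mouse pancreas after loss of Lmna. They were taken by symbol from the array annotation, which gave 11 rows of the 41345 in the deposited table, and the row of highest mean was kept where a gene had several. All 10 genes had a row, of 22180 genes tested. The samples were total RNA of pancreas from C57 BL6 mice of genotype LmnaKO (KO, 4 arrays) and LmnaWT (WT, 4 arrays). Each genotype held 3 males and 1 female, and replicate 4 is the female in both. All animals, controls included, had received intraperitoneal tamoxifen at 3 mg per 40 g of body weight, and RNA was taken 6 days later. The series title places the deletion in acinar cells, the enzyme-secreting cells of the exocrine pancreas. The sources used here give neither the Cre driver nor the age of the animals. Nothing in the labels says how the animals of a group relate, and the p-values reflect only how far these arrays scatter, which may be technical in part.

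In the Hippo pathway, the kinases MST1 and MST2 with their partner SAV1 switch on LATS1 and LATS2, which need the MOB1 proteins as cofactors. LATS kinases phosphorylate the co-activators YAP and TAZ and so keep them out of the nucleus. When the kinases are quiet, YAP and TAZ enter the nucleus and bind TEAD factors, which sit on DNA at the letters GGAATG. LATS2, AMOTL2 and ANKRD1 are themselves well-known products of YAP and TEAD, and the first 2 feed back to restrain YAP. Nuclear tension, the actin cytoskeleton and lamin A/C at the nuclear rim are known to bear on YAP and TAZ localisation, which RNA levels do not report. In adult mouse pancreas YAP is most abundant in duct and centroacinar cells.

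In KO pancreas 2 of the TEAD genes and the gene of TAZ differed from WT. Tead2 fell by 1.52 on the log2 scale (2.86-fold lower), Tead4 fell by 0.90 (1.87-fold lower), and Wwtr1 rose by 0.80 (1.74-fold higher). The other 7 members did not pass the test (limma with Benjamini-Hochberg adjustment over all 22180 genes, adjusted p below 0.05), among them Yap1, both LATS kinases and the target genes Amotl2 and Ankrd1. Of the 10 members 1 was called higher, where 14.6% of all genes were, and 2 were called lower, where 6.99% of all genes were. In either direction 3 of 10 passed, against 21.6% of all genes, a share near the background. The median change of the members was 0.10, against -0.06 over all genes.

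The arrays carry no read depth, and their number limits the precision. Listed markers of acinar cells averaged 9.39 to 9.55 in KO and 10.07 to 10.23 in WT (mean log2 over 9 genes), against maxima of 12.35 to 12.47 per array, so markers of the labelled tissue were among the highest values. Lmna itself read 2.33, 2.58, 2.73 and 2.61 in KO 1 to KO 4 and 2.54, 3.13, 2.67 and 2.88 in WT 1 to WT 4 and did not pass (-0.24 ± 0.15, SE, limma adjusted p = 0.264). The position of its probes relative to the deletion is unknown, so this row is no check of the labels. Values of all 41345 rows spread more widely in KO arrays, with an interquartile range of 2.45 to 2.65 in KO and 2.06 to 2.20 in WT. Genes of middle level shared a positive shift: the median change was 0.45 at a mean level of 4 to 5, 0.50 at 5 to 6 and 0.39 at 6 to 8, against -0.01 at 2 to 4.

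Tead2 encodes the TEAD factor known for early embryonic expression. It read 5.20, 4.48, 4.80 and 4.64 in KO 1 to KO 4, against 6.60, 6.00, 6.25 and 6.34 in WT 1 to WT 4 (log2 expression). Every KO array lay below every WT array, and the gap between the highest KO and the lowest WT array was wider than the range within either group. The means were 4.78 ± 0.31 in KO and 6.30 ± 0.25 in WT (SD, n = 4 each), a change of -1.52 ± 0.18 (SE, 95% interval -1.92 to -1.11, limma adjusted p = 0.00199). By size it was the 27th most negative change of the 22180 genes, at a mean level of 5 to 6 where 3.14% of genes were called lower and the median gene shifted up. The call held in all 18 alternatives, with changes between -1.92 and -1.38. Of the 9 acinar marker genes 4 were called lower too, namely Amy2b (-1.89), Rbpjl (-1.60), Bhlha15 (-1.42) and Cela3b (-0.66). The other 5 did not pass: Cpb1 (-0.22), Cpa1 (-0.13), Cel (-0.11), Ctrb1 (-0.06) and Ptf1a (0.03). Except for Ptf1a these had mean levels of 11.90 to 12.34, close to the array maxima of 12.35 to 12.47. Whether a ceiling of the arrays made their changes small was not tested. The mean level of the 9 markers separated the genotypes. Their part in the Tead2 result was not tested, and in bulk tissue fewer cells of a type and less RNA per cell cannot be told apart. The Tead2 promoter is printed because this is the member that changed most. It runs over chr7:45215542-45215841 on the plus strand of GRCm38.p6 (RefSeq) and covers 250 bases before to 50 after the gene's start, and TEAD letters, where found, are in capitals. It holds none.
Tead2 promoter: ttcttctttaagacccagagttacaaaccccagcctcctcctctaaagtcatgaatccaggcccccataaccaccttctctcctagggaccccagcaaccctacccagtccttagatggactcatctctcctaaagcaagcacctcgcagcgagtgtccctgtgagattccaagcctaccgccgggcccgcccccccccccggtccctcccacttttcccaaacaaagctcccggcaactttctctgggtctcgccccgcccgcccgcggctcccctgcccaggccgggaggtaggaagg

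Tead4, known for its part in the trophectoderm and in regenerating muscle, read 2.17, 1.91, 2.34 and 1.69 in KO 1 to KO 4 and 2.51, 3.43, 2.95 and 2.81 in WT 1 to WT 4. All KO arrays lay below all WT arrays, though KO 3 and WT 1 were only a little apart. The group means were 2.03 ± 0.28 in KO and 2.93 ± 0.38 in WT (SD, n = 4 each), and the change was -0.90 ± 0.21 (SE, 95% interval -1.37 to -0.43, limma adjusted p = 0.0169). Without KO 4 the call was lost (-0.79, adjusted p = 0.0542), as among males only (-0.83, adjusted p = 0.0943). Tead4 is a dim row, with 48.8% of genes at a lower mean level, and the sources used here give no background signal. In its level range of 2 to 4, 9.35% of genes were called lower.

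Tead1, the broadly expressed family member, read 3.87, 4.39, 4.05 and 4.25 in KO 1 to KO 4 and 4.27, 4.0, 3.78 and 3.94 in WT 1 to WT 4. The groups overlapped, and the change of 0.14 ± 0.15 (SE, 95% interval -0.20 to 0.48) did not pass (limma adjusted p = 0.501). It turned in sign when the arrays were quantile-normalized again (-0.18) or normalized by cyclic loess (-0.14). Tead3, best known from placenta, read 2.70, 2.92, 2.95 and 2.69 in KO and 2.67, 3.15, 3.06 and 2.94 in WT, in the order of replicates 1 to 4. Its change was -0.14 ± 0.14 (95% interval -0.44 to 0.17, limma adjusted p = 0.476). Neither interval reaches the change of Tead2.

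**Figure D1:**
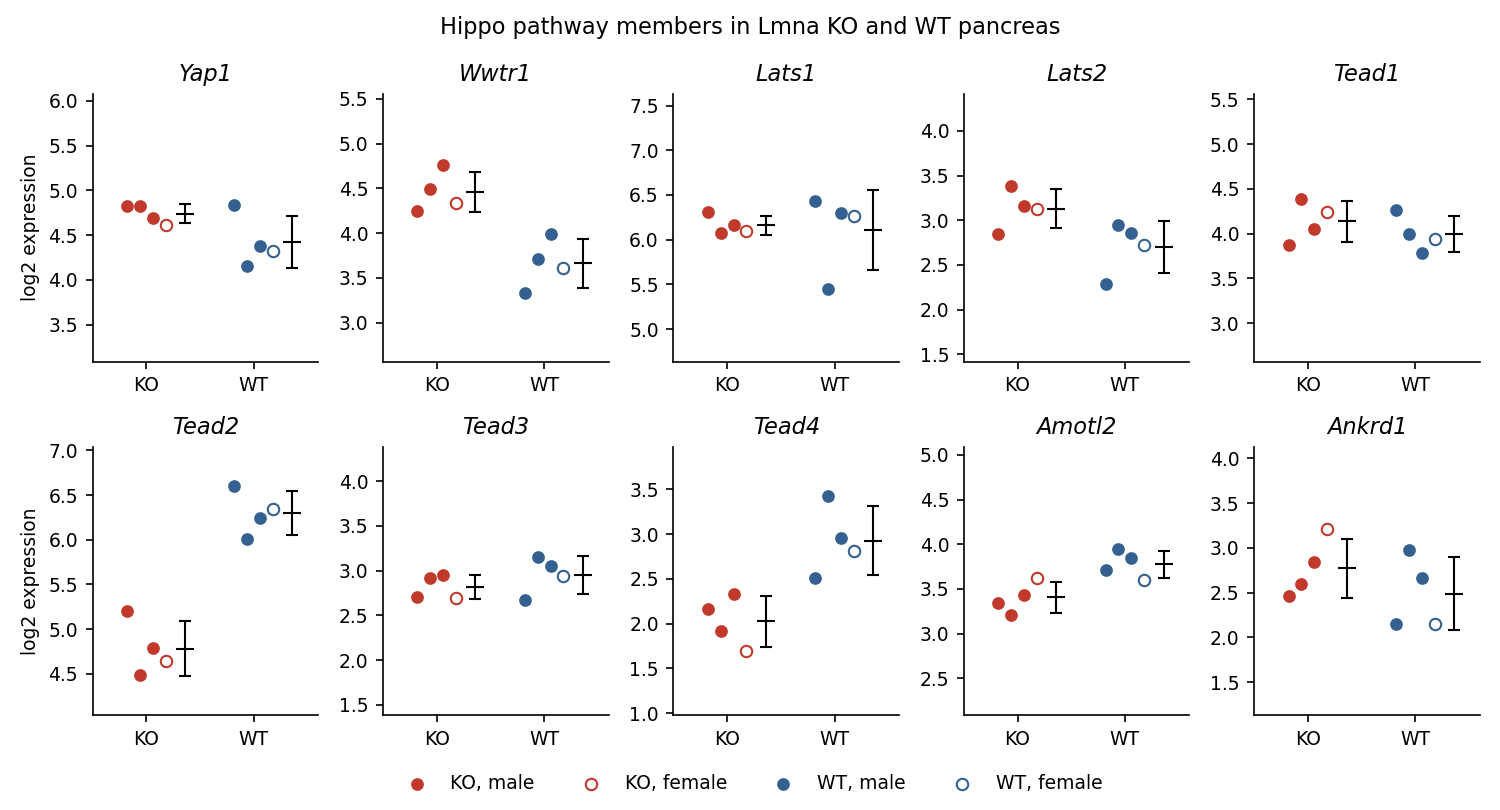
Log2 expression (y axis, the same span of 3 log2 units in each panel) of the 10 members in the 4 KO and 4 WT arrays; points are arrays, open points the females, and the bars mean ± SD. Tead2 and Tead4 lie lower in all KO arrays and Wwtr1 higher in all KO arrays, while the groups of the other 7 genes overlap.

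Wwtr1 encodes TAZ, a co-activator that binds TEAD factors as YAP does. It read 4.25, 4.50, 4.76 and 4.33 in KO 1 to KO 4 and 3.33, 3.72, 4.0 and 3.61 in WT 1 to WT 4. Each KO array was above each WT array. The means were 4.46 ± 0.23 in KO and 3.66 ± 0.28 in WT (SD, n = 4 each), and the change was 0.80 ± 0.17 (SE, 95% interval 0.42 to 1.18, limma adjusted p = 0.0121). This rise stood beside a median of 0.45 for all genes of its level range (4 to 5), in which 36.6% of genes were called higher. With quantile normalization repeated it was 0.48 (adjusted p = 0.111), with cyclic loess 0.51 (adjusted p = 0.0907) and among males only 0.82 (adjusted p = 0.0745), so the call was lost in these 3 alternatives. It held in the other 15, the 8 that leave out 1 array among them. Markers of stellate cells and fibroblasts, in which TAZ is known to be expressed, averaged 5.02 to 6.84 in KO and 4.55 to 5.76 in WT (9 genes, 1 called higher, Lum by 1.14, while the others ran from -0.82 for Acta2 and -0.12 for Des to 1.29 for Pdgfra without passing). Macrophage markers averaged 4.94 to 6.87 in KO and 3.37 to 5.47 in WT (6 genes, 2 called higher, Adgre1 by 2.29 and Cd68 by 2.06). Duct markers averaged 3.85 to 4.18 in KO and 3.53 to 3.86 in WT (5 genes, 2 called higher, Krt19 and Epcam, both by 1.13, while Krt7 differed by 0.34, Cftr by -0.08 and Sox9 by -0.47 without passing). None of these 3 list levels kept the genotypes apart, and their part in the Wwtr1 result was not tested.

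Yap1, the other co-activator gene, read 4.83, 4.82, 4.69 and 4.61 in KO 1 to KO 4 and 4.84, 4.16, 4.38 and 4.33 in WT 1 to WT 4. KO arrays lay above WT 2, WT 3 and WT 4, but WT 1 was as high as the highest KO array. The change of 0.31 ± 0.15 (SE, 95% interval -0.03 to 0.66) did not pass (limma adjusted p = 0.159). Without WT 1 it was 0.45 and passed (adjusted p = 0.0264). It turned in sign with quantile normalization repeated (-0.07) and with cyclic loess (-0.04), so no direction is given for Yap1. A second Yap1 row was dim, at 1.10 to 1.37 in KO and 1.03 to 1.33 in WT, and showed a change of 0.06 with no separation.

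Lats1 and Lats2 encode the kinases that phosphorylate YAP and TAZ. Lats1 read 6.31, 6.07, 6.16 and 6.09 in KO 1 to KO 4 and 6.43, 5.45, 6.30 and 6.26 in WT 1 to WT 4. Apart from the low WT 2 the arrays of both groups lay within a narrow band, and the change was 0.05 ± 0.20 (SE, 95% interval -0.40 to 0.51, limma adjusted p = 0.864). Its sign turned with quantile normalization repeated (-0.35), with cyclic loess (-0.35), with array weights (-0.04) and without WT 2 (-0.17). Lats2, also a YAP target that feeds back on YAP, read 2.85, 3.38, 3.16 and 3.13 in KO 1 to KO 4 and 2.29, 2.95, 2.86 and 2.73 in WT 1 to WT 4. Only KO 1 fell among the WT arrays. The change was 0.42 ± 0.17 (SE, 95% interval 0.04 to 0.81) and did not pass over all genes (limma adjusted p = 0.0995). With the replicate number as a block it did (0.42, adjusted p = 0.0466), as after median centring (0.56, adjusted p = 0.0312).

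Amotl2 encodes an angiomotin-family scaffold that holds YAP at cell junctions and is a YAP target itself. It read 3.35, 3.21, 3.44 and 3.63 in KO 1 to KO 4 and 3.71, 3.95, 3.85 and 3.60 in WT 1 to WT 4. The male KO arrays lay below the WT arrays, while the KO female was level with the WT female. The change of -0.37 ± 0.13 (SE, 95% interval -0.67 to -0.07) did not pass (limma adjusted p = 0.0728), but it did with quantile normalization repeated (-0.61, adjusted p = 0.0325) and with cyclic loess (-0.55, adjusted p = 0.0265). Ankrd1, a nuclear ankyrin-repeat protein much used as a readout of YAP, read 2.46, 2.59, 2.84 and 3.21 in KO 1 to KO 4 and 2.15, 2.98, 2.66 and 2.15 in WT 1 to WT 4. Its groups overlapped over most of their range, with a change of 0.29 ± 0.23 (SE, 95% interval -0.22 to 0.79, limma adjusted p = 0.357). Between the females Ankrd1 was 1.06 higher in KO, with 1 array a genotype, and between the male means 0.03 higher. The difference of these changes (1.03 ± 0.46, SE) had an unadjusted p of 0.0599 by limma. With 1 female a genotype, that test takes its spread from the males alone and assumes that females vary alike, so that its counts (0 of the 10 members, 0 at an unadjusted p below 0.05, and 0.00451% of all genes) do not show that the sexes responded alike.

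Ankrd1 and Amotl2 are shown with Wwtr1 because all of these promoters hold the TEAD letters GGAATG, read on both strands and given in capitals. The windows come from RefSeq on GRCm38.p6, 250 bases before to 50 after a start: chr19:36119795-36120094 on the minus strand for Ankrd1, chr9:102717554-102717853 on the plus strand for Amotl2, and chr3:57575827-57576126 on the minus strand for Wwtr1.
Ankrd1 promoter: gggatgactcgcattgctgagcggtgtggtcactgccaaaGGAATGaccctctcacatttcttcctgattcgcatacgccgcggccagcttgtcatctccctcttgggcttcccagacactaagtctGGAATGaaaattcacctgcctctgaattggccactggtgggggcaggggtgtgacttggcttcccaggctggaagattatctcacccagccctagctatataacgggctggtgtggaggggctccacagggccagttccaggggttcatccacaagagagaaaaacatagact
Amotl2 promoter: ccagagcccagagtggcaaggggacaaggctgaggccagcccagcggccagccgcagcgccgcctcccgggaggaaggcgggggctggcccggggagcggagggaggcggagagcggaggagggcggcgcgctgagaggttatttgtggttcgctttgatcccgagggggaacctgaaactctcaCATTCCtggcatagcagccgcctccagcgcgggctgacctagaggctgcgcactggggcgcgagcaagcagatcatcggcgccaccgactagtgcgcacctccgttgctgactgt
Wwtr1 promoter: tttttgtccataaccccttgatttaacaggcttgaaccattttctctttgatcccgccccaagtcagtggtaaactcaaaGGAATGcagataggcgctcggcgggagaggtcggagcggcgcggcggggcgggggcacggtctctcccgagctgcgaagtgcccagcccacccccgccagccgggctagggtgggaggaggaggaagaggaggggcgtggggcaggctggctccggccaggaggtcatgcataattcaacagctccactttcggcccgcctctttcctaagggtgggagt
Ankrd1 has the letters at -210 and -123, Amotl2 on the opposite strand at -65 and Wwtr1 at -170, counted from the gene's start to the match's leftmost base as printed. Promoters of 8 of the 10 members were in the table, those of Tead1 and Tead4 being absent. Of these genes 6 (Yap1, Wwtr1, Lats2, Tead3, Amotl2 and Ankrd1) had at least 1 window with a match, against 16.6% of the 27025 genes in the table. Lats2, Amotl2 and Ankrd1 are known products of YAP and TEAD, so this count is no test. Some genes have more than 1 window, which may overlap, and 14.7% of all 32851 windows held a match. Lats1 and Tead2 had none. A match here is a description of letters and not of a bound site. Of the 6 genes with a match, Wwtr1 alone passed the test of genotype as fitted.

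Within each array, the difference between 2 paralogs shows whether they changed unequally. The 8 pairs compared were Wwtr1 with Yap1, Lats2 with Lats1 and the 6 pairs of TEAD genes. Tead1 minus Tead2 was -1.33, -0.10, -0.75 and -0.40 in KO 1 to KO 4 and -2.33, -2.01, -2.47 and -2.40 in WT 1 to WT 4. All KO arrays were above all WT arrays, and the change was 1.66 (exact two-sided permutation p = 0.0286, adjusted over the 8 pairs p = 0.0762). Tead2 minus Tead3 changed by -1.38 and Tead3 minus Tead4 by 0.76, both with groups that did not overlap and with the same exact permutation p. The 0.0286 is the smallest that 4 against 4 arrays allow. In the other 5 pairs the groups overlapped, with exact permutation p between 0.0857 and 0.371. Wwtr1 minus Yap1 changed by 0.48 (exact permutation p = 0.143), so the rise of Wwtr1 was not shown to differ from the change of Yap1. Between arrays of the same replicate number, that difference was 0.93, 0.12, 0.45 and 0.44 higher in KO, with one sign throughout (exact sign-flip permutation p = 0.125, the smallest 4 pairs allow). All 4 replicate pairs had one sign in 5 of the 8 paralog pairs. After adjustment 0 of the 8 passed, and unpaired 3 did at the unadjusted level of 0.05, which no p of 4 replicate pairs can reach. With only 3 of the 8 pairs at the smallest unpaired p, none could pass after adjustment, however large its change.

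**Figure D2:**
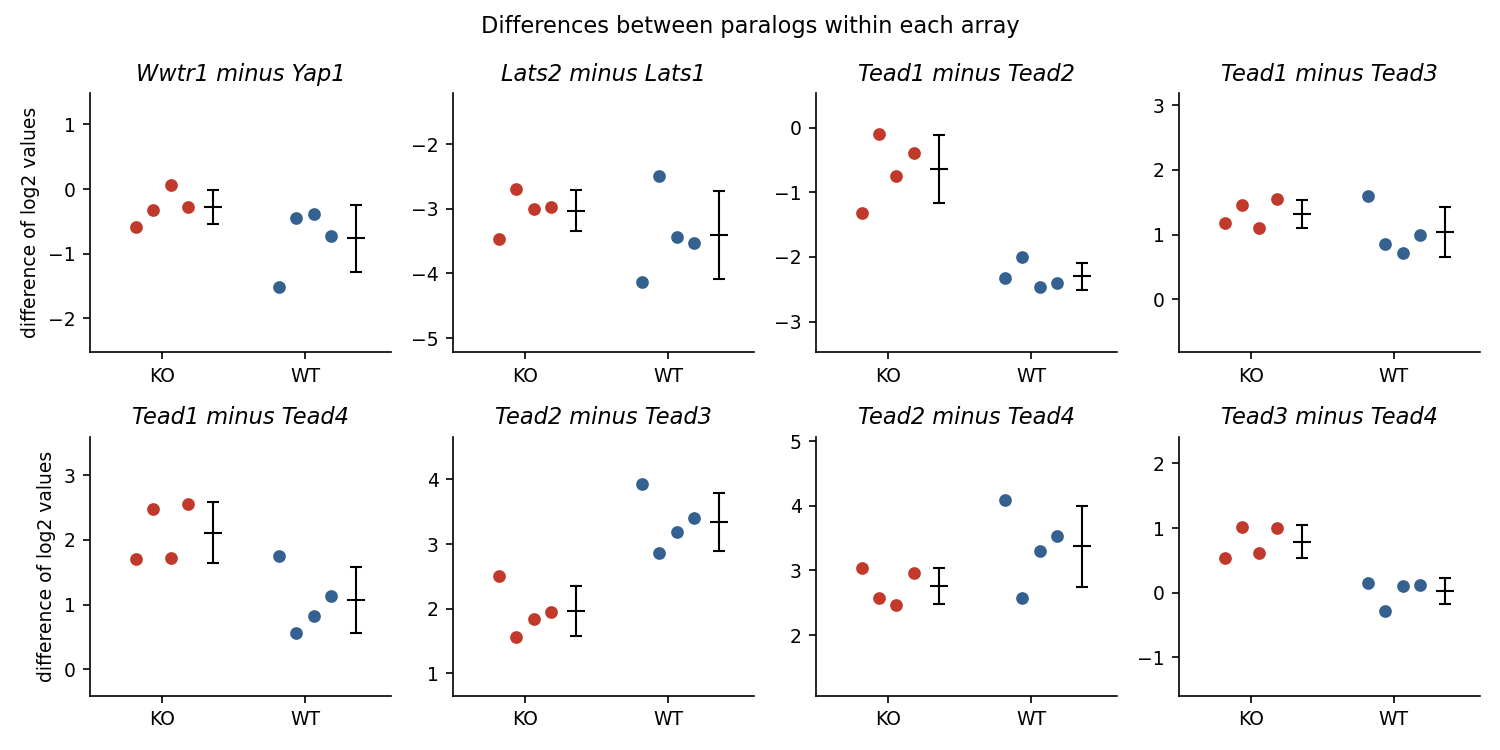
Difference of the log2 values of 2 paralogs within each array (y axis, a span of 4 log2 units in each panel), KO left and WT right; points are arrays and bars mean ± SD. The groups stand apart for Tead1 minus Tead2, Tead2 minus Tead3 and Tead3 minus Tead4 and overlap in the other 5 pairs.

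By mean level over the 8 arrays the members lay between the 48.8th percentile of all genes (Tead4) and the 93.8th (Lats1), with Tead2 at the 89.7th. Yap1 (0.31) and Tead1 (0.14) lay under the median of 0.45 for genes of their level, and Lats1 (0.05) lay under the 0.39 of its own. Wwtr1 (0.80) lay above the 0.45 of its level, while Tead2 lay 1.52 below 0 in a range whose median gene was at 0.50. Amotl2, Tead3 and Tead4 lay below, and Lats2 and Ankrd1 above, the median of -0.01 for genes at 2 to 4. Groups that do not overlap were seen in 3 of the 10 members, against 27.4% of all genes (15.3% with all KO arrays above and 12.1% with all below).

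**Figure D3:**
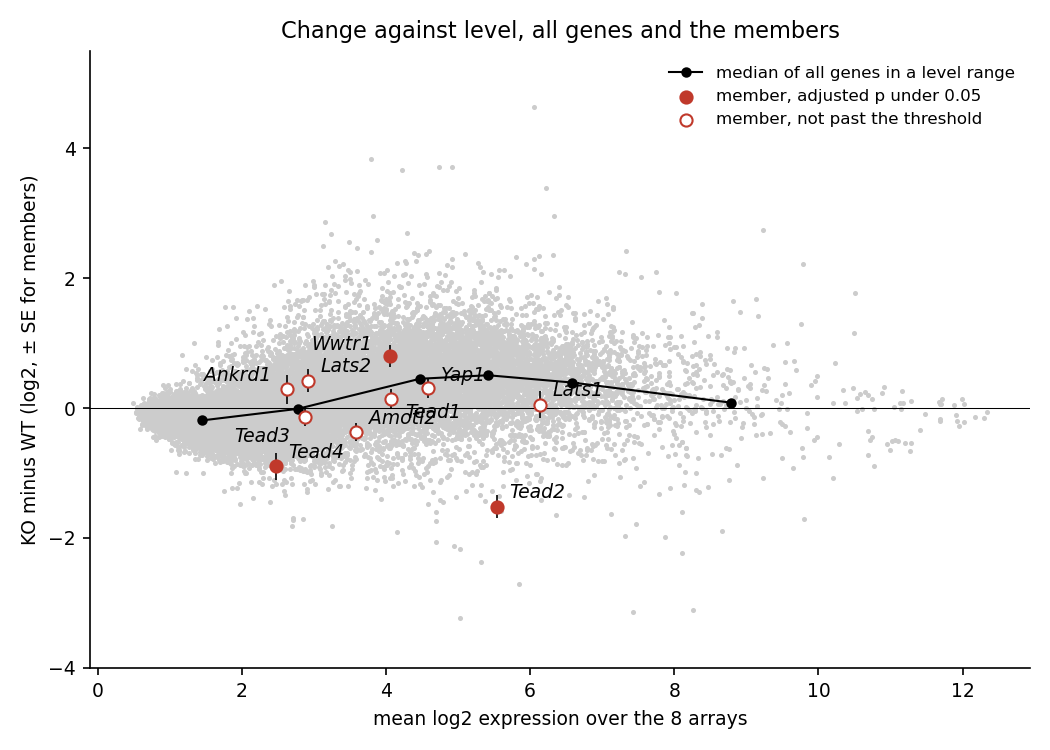
Change (y axis, KO minus WT, log2) against mean level over the 8 arrays (x axis, log2) for all 22180 genes in grey, with the median change per level range in black and the 10 members in red (filled where the adjusted p was below 0.05, bars SE). Tead2 lies among the most negative genes of its level, and Yap1, Tead1 and Lats1 lie under the black line.

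Upstream of LATS, a list of 32 kinases, adaptors and membrane proteins was followed, of which 26 had a row of their own and the other 6 were not analysed here. Of these 9 were called higher (34.6%) and 1 lower (3.85%), with a median change of 0.28, against -0.06 over all genes. Their median level was 4.68, and 36.6% of all genes at 4 to 5 were called higher. The listed genes ran in mean level from 1.80 to 6.12, however. Of all genes 12.1% were called higher at 2 to 4 and 39.7% at 5 to 6, so no single range matches the list. The higher ones were the LATS cofactor Mob1a, the scaffold Sav1, the merlin gene Nf2, the giant cadherin Fat1, the kinases Map4k4, Map4k5, Taok3 and Stk38l, and the striatin Strn. The lower one was the cadherin Dchs1 (-0.37 ± 0.11, limma adjusted p = 0.0438), named after its value was seen.

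Mob1a, without which LATS kinases are not fully active, read 5.37, 5.62, 5.54 and 5.84 in KO 1 to KO 4 and 4.80, 4.41, 4.55 and 4.55 in WT 1 to WT 4. The groups were well apart, with a change of 1.02 ± 0.14 (SE, limma adjusted p = 0.00248), and this call held in all 18 alternatives. Fat1, an atypical cadherin of the junction, read 5.64, 5.80, 5.98 and 5.30 in KO and 4.39, 4.60, 5.04 and 4.58 in WT, for a change of 1.03 ± 0.18 (limma adjusted p = 0.00622) that held in 16 of 18. Nf2, whose product merlin brings LATS to the membrane, read 4.82, 4.49, 4.76 and 4.66 in KO and 4.04, 3.75, 4.20 and 4.14 in WT (0.65 ± 0.14, limma adjusted p = 0.0119). Sav1, the scaffold of the MST kinases, rose less, with 5.45, 5.73, 5.64 and 5.44 in KO and 5.10, 5.11, 5.12 and 5.03 in WT (0.48 ± 0.11, limma adjusted p = 0.0177). The WT arrays of Sav1 lay very close together. Its change was 0.05 with quantile normalization repeated, where the call was lost. At a mean level of 5 to 6, that of Mob1a, Fat1 and Sav1, the median gene changed by 0.50 and 39.7% of genes were called higher. The change of Sav1 lay just under that median. At 4 to 5, the level of Nf2, the median was 0.45. Of the core kinases Stk4 (MST1) did not pass, at 0.37 ± 0.17 (limma adjusted p = 0.13), nor did Mob1b at 0.51 ± 0.23 (adjusted p = 0.135), in which WT 2 and WT 4 read 4.49 and 4.83 and all other arrays 5.56 to 5.66. Changes of the remaining called kinases and of Strn ran between 0.46 and 0.75, with limma adjusted p from 0.00749 to 0.0432. Map4k4, Map4k5 and Strn each held in 15 of 18 alternatives, Taok3 in 9 of 18 and Stk38l in 6 of 17. The count of higher upstream genes fell to 1 (Mob1a) with quantile normalization repeated and with cyclic loess and to 2 among males only. Dchs1 did not pass with the replicate block, which called 8 higher and 0 lower. Its call was also lost with a sex term, among males only, after median centring and with the trend and robust eBayes. Without KO 1, KO 2, KO 3, KO 4, WT 2 or WT 3 it was lost too.

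YAP and TAZ targets beyond the members were followed as a list of 19 genes, of which 18 were measured. Of these 18, 3 were called higher (16.7%) and 0 lower, beside 14.6% of all genes called higher. The list median was 0.38, against -0.06 over all genes. The targets ran in mean level from 1.69 to 5.37, and the shift of all genes depended on level. The median change was -0.01 at 2 to 4, 0.45 at 4 to 5 and 0.50 at 5 to 6. Of the called targets F3, Myof and Dock5 lay in these ranges in turn. There 12.1%, 36.6% and 39.7% of all genes were called higher. The best-known targets did not pass. Ccn1 (CYR61), a matrix-associated protein, read 3.20, 3.02, 3.42 and 3.09 in KO 1 to KO 4 and 3.28, 3.81, 3.09 and 2.83 in WT 1 to WT 4, a change of -0.07 ± 0.20 (SE, 95% interval -0.52 to 0.38, limma adjusted p = 0.799). Ccn2 (CTGF), a matrix-associated growth factor, read 2.79, 3.04, 3.35 and 3.36 in KO and 2.97, 3.26, 3.32 and 2.90 in WT, a change of 0.02 ± 0.17 (95% interval -0.35 to 0.39, limma adjusted p = 0.939). The groups of both genes overlapped throughout. Ccn2 has more than 1 row, and with the mean of its rows the change was -0.20, also without passing.

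The 3 higher targets were the guanine nucleotide exchange factor Dock5, the tissue factor gene F3 and the ferlin Myof. Dock5 read 5.30, 5.58, 5.21 and 5.35 in KO 1 to KO 4 and 5.20, 4.59, 4.66 and 4.41 in WT 1 to WT 4 (0.65 ± 0.17, limma adjusted p = 0.0289). F3 read 3.08, 3.63, 3.65 and 3.78 in KO and 2.85, 2.80, 3.22 and 2.78 in WT (0.62 ± 0.17, limma adjusted p = 0.0325). For F3, KO 1 lay within the WT range. Myof read 4.39, 6.43, 5.17 and 5.87 in KO and 2.88, 4.88, 3.86 and 4.05 in WT (1.55 ± 0.48, limma adjusted p = 0.046), with arrays of both groups overlapping. Array by array, macrophage markers stood in the same order within each group, at 4.94, 6.87, 6.07 and 6.81 in KO 1 to KO 4 and 3.37, 5.47, 4.23 and 4.60 in WT 1 to WT 4, and their part in the Myof value was not tested. These calls were lost more often than those of the members: Dock5 held in 9 of 18 alternatives, F3 in 9 of 17 and Myof in 8 of 18. No target was called higher with quantile normalization repeated, with cyclic loess, among males only or without KO 2, KO 4 or WT 4, whereas 5 were with the replicate block and 6 after median centring. Without KO 3, WT 2 or WT 3 the count was 1, without KO 1 it was 4, and without KO 2 a target was called lower.

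The vestigial-like proteins Vgll1 to Vgll4 compete with YAP and TAZ for TEAD factors. Of the 4 genes 0 passed (limma, adjusted p from 0.198 to 0.773, 0 at an unadjusted p below 0.05). Vgll4, the member with a tumour-suppressive role, read 2.90, 3.51, 3.24 and 3.24 in KO 1 to KO 4 and 3.54, 2.81, 2.98 and 2.87 in WT 1 to WT 4 (0.17 ± 0.19). Vgll1 and Vgll2 were dim, with means of 1.48 and 1.73, and had changes of -0.27 and -0.24. Vgll3 differed by 0.09 ± 0.22.

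**Figure D4:**
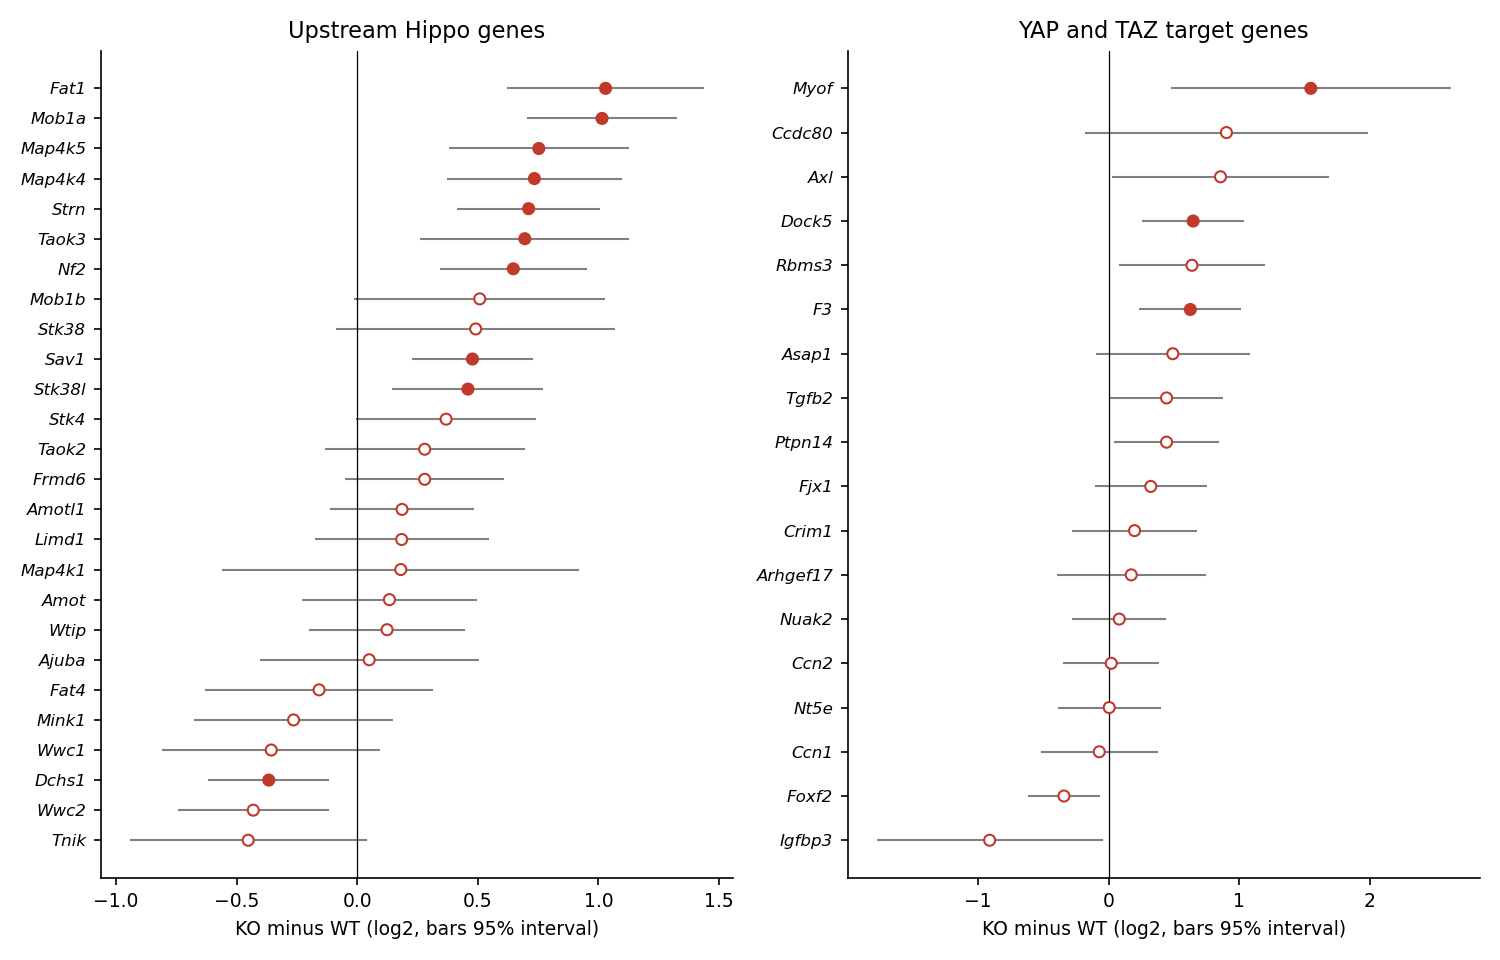
Change of each measured upstream Hippo gene (left, 26 genes) and each measured YAP and TAZ target besides the members (right, 18 genes), KO minus WT on the log2 scale (x axis), with 95% intervals; filled points had an adjusted p below 0.05. Upstream genes run from -0.45 to 1.03 with Mob1a and Fat1 at the top, and targets from -0.91 to 1.55 with Ccn1 and Ccn2 near 0.

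Ankrd1 is known to be expressed strongly in striated muscle. Striated markers averaged 2.03 to 2.24 in KO and 2.25 to 2.88 in WT (6 genes, 1 called lower), and smooth muscle markers 2.22 to 2.62 in KO and 2.31 to 5.28 in WT (4 genes, 0 called). WT 3 alone was high in smooth muscle markers (5.28, next WT array 2.88), with an Ankrd1 value of 2.66. Of the KO arrays, KO 1 had the highest striated level (2.24) and the lowest Ankrd1 (2.46), and KO 4 the lowest striated level (2.03) and the highest Ankrd1 (3.21). Of the WT arrays, WT 2 had the highest of both (2.88 and 2.98). The striated level was lower in every KO array than in any WT array, but KO 1 (2.24) and WT 1 (2.25) were nearly level. These markers are dim rows, with mean levels from 1.28 to 2.95. The mean of Ankrd1 was 2.77 in KO and 2.49 in WT. The part of muscle in the Ankrd1 values was not tested. Endothelial markers averaged 3.52 to 4.58 in KO and 3.95 to 4.37 in WT (6 genes, 0 called), and mesothelial markers 3.09 to 4.91 in KO and 2.85 to 4.04 in WT (4 genes, 0 called). The islet, B cell, neutrophil and adipocyte lists had 0 calls, and the T and NK list 1 lower of 5.

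For the 3 called members, the genes with the most similar values over the 8 arrays were found by the root mean square difference after centring each gene on its mean. Predicted genes (such as Gm and Rik names), small RNAs and antigen receptor segments were left out of this ranking. Nearest to Tead2 were Gnmt, a glycine methyltransferase, at 0.09 log2 units, Bhlha15 (MIST1), the transcription factor of the acinar secretory state, at 0.19, and Tmed6, a p24-family cargo receptor, at 0.20. Gnmt changed by -1.59, Bhlha15 by -1.42 and Tmed6 by -1.30. Nearest to Wwtr1 were the small GTPase Rras (0.10), the small Maf factor Mafg (0.13) and Aida (0.14), with changes of 0.85, 0.57 and 0.86. Tead4 was nearest to Deup1 (0.13), Snhg17 (0.13) and Peg10 (0.14), with changes of -0.99, -0.92 and -0.66, the last not past the threshold (limma adjusted p = 0.0537). The distance includes the difference between KO and WT, so a gene near a member has a similar change by the way it was picked. These distances describe 8 arrays and carry no test.

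**Figure D5:**
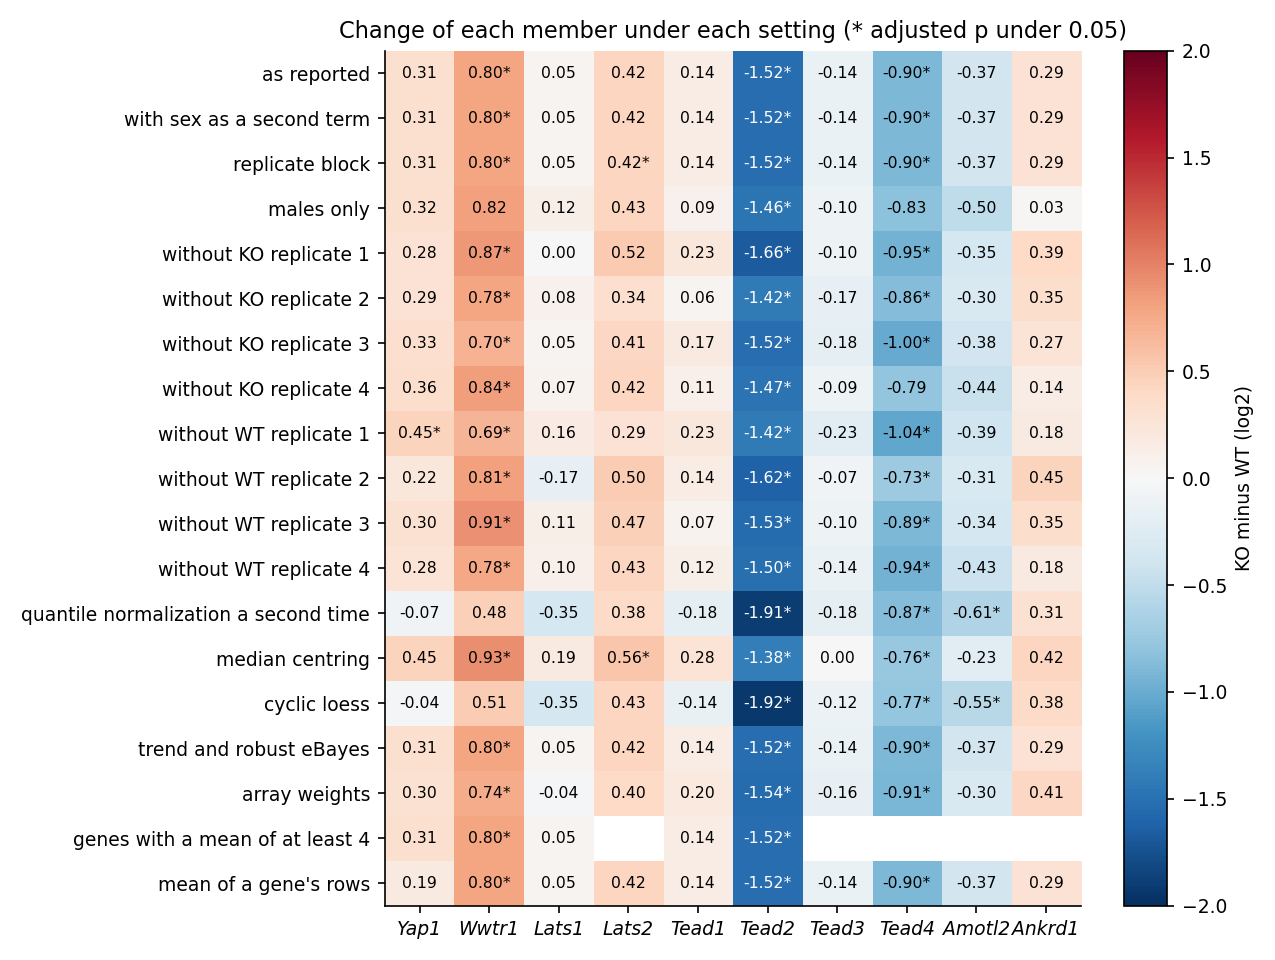
Change of each member (columns, KO minus WT, log2, by colour and number) under the reported setting and 18 alternatives (lines), with an asterisk where the adjusted p was below 0.05 and blank where the gene was left out. Tead2 keeps its asterisk throughout, Tead4 loses it among males only and without KO 4, and Wwtr1 among males only and after the quantile and loess renormalizations.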

How the data were processed

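Total RNA of mouse pancreas was measured on 8 whole-transcript arrays. The authors deposited 1 table of log2 expression values; per the submitters' processing notes they worked with RMA, oligo and limma (versions not stated). RMA subtracts background, equalizes the distributions of the arrays and combines the probes of a row. No source states the log base, which was read from the use of RMA and from the range. The sources used here name no scan batch, no probe positions and no background signals.

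Of 41345 rows, 23521 carried 1 gene symbol in the platform annotation and were used; 1814 carried several and 16010 none. No column was left unmapped. The row of highest mean was kept for the 1082 genes in several rows, with no filter on dim rows. Across the 8 arrays a genotype term was fitted by limma 3.58.1 (lmFit and eBayes, R 4.3.3). P-values were adjusted by Benjamini-Hochberg over 22180 genes, and those under 0.05 were called. A change is the KO mean minus the WT mean in log2 units. Paralog differences were tested by an exact permutation test over arrays taken as unpaired. The fit was tested on simulated data.

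The members and lists were chosen with earlier results of these data known, so counts over them are descriptions. Named were the 10 members, Lmna, the core upstream genes, Ccn1, Ccn2, up to 6 other called genes of the upstream and target lists by smallest p, the 4 vestigial-like genes and the 3 genes nearest to each called member; Dchs1 and single markers were named after their values were seen. Both groups carry replicate numbers 1 to 4. After removing each group's mean, arrays that share a number correlated across genes at 0.26, 0.17, 0.11 and 0.14. All are above 0.1, which meets the rule for pairing by number, although no label ties the numbers to a litter or a day. Arrays of unlike number also passed 0.1 for KO 2 with WT 4 (0.12) and KO 1 with WT 3 (0.11). The lowest was -0.21, for KO 2 with WT 1. Replicate 4 is also the only female of each group. The reported fits are unpaired, and the paired ones (a replicate block, and sign flips for paralogs) are alternatives. The 18 alternatives were a sex term, a replicate block, the males alone, leaving out each array, 3 renormalizations (quantile, median, cyclic loess), a trend with robust eBayes, array weights, a filter at a mean level of 4, and the mean of a gene's rows.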

Additional observations from a re-analysis of the deposited data

Results flagged for a closer look

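Map4k4 in WT was marked because WT 2 (5.60) lay far below the other WT arrays (5.80 to 5.81), while the KO arrays read 6.05 to 6.74. F3 in WT was marked because WT 3 (3.22) lay above the other WT arrays (2.78 to 2.85). Vgll2 in WT was marked because WT 4 (1.63), a female, lay below the other WT arrays (1.90 to 1.94), at a dim level. Each was found with Dixon's test at the 95% level for 4 arrays, which marks about 1 in 20 groups by chance. None of the 10 members was marked in either genotype.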

How the results depend on the processing

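The number of members called was 3 as reported and 1 (Tead2) among males only; in the 8 fits that leave out 1 array it ran from 2 to 4, and in the other alternatives from 2 to 4. Over all genes 4792 passed, against 915 among males only, 2370 with quantile normalization repeated, 2699 with cyclic loess, 2834 of the 6264 genes with a mean of at least 4, and 2240 to 6070 with 1 array left out (the count was 3183 when KO 2 was dropped, 2904 for KO 3 and 2240 for KO 4). Higher and lower calls numbered 3241 and 1551 as reported, 1228 and 1142 with quantile normalization repeated, 1521 and 1178 with cyclic loess and 4390 and 615 after median centring, where the median of all genes was 0.08, against -0.06 as reported. Only changes that had not passed turned in sign. With quantile normalization repeated these were Yap1 (-0.072), Lats1 (-0.35), Tead1 (-0.18) and Ccn2 (-0.093). With cyclic loess they were Yap1 (-0.043), Lats1 (-0.35), Tead1 (-0.14), Ccn2 (-0.040) and the Tead1 minus Tead3 difference (-0.024). Median centring turned Tead3 (0.0012) and Ccn1 (0.063), array weights turned Lats1 (-0.042) and Ccn1 (0.040), males only turned Ccn2 (-0.13), and the mean of its rows turned Ccn2 (-0.20). With 1 array left out, Lats1 ran from -0.17 to 0.16, Ccn1 from -0.21 to 0.11, Ccn2 from -0.056 to 0.13 and Vgll3 from -0.11 to 0.22. The causes were not tested. The replicate block gave 5046 calls and 4 members (Lats2 added) and changed no other call among the members; paired, the paralog differences have no p below 0.125. The filter at a mean of 4 left out Lats2, Tead3, Tead4, Amotl2 and Ankrd1. Background is unknown, so the precision of dim rows such as Tead4 is too.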
